A study of Rattus norvegicus with 24 samples.

Results

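The 34 genes described here encode the transcription factor NRF2 (gene Nfe2l2), its inhibitor KEAP1, and enzymes and transporters known as NRF2 targets, together with enzymes of the pentose phosphate pathway. They were taken by symbol from 3 tables of RNA-seq counts that each list 36856 genes, and all 34 symbols were present in each table. The rats were Sprague-Dawley, described as female, weighed 120 to 200 g and ate synthetic diets for 7 days. In the salt experiment the diet held 0.4% sodium (called high salt in the sample titles and control sodium in the protocol) or 0.01 to 0.02% sodium (low salt), and both the kidney papilla, which is the inner medulla, and a piece of heart ventricle were sequenced. In the aldosterone experiment, papilla came from rats on the 0.4% sodium diet whose osmotic minipumps delivered 12 µg of aldosterone per day, and from controls. For the controls the titles give only that name, so the 0.4% sodium diet without the hormone is read from the protocol, which does not mention an empty pump. Each of the 6 groups held 4 libraries, and in every group replicates 1 and 2 are labelled batch 1 and replicates 3 and 4 batch 2. What the batch was is not stated. The members were chosen by known function and by the count values of these same libraries, since the list was drawn up with earlier results known. The members' treatment and batch values below therefore describe the genes and are not independent support for a direction.

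NRF2 is kept low in unstressed cells by KEAP1, which presents it to a ubiquitin ligase for degradation. Oxidants and electrophiles modify KEAP1, NRF2 accumulates, pairs with small MAF proteins and binds antioxidant response elements in the promoters and enhancers of its targets. Those targets make glutathione, reduce thioredoxin, detoxify quinones and electrophiles, handle haem and iron, and supply NADPH, which the pentose phosphate pathway and malic enzyme generate. The papilla is known for high osmolality and low oxygen tension.

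The letters TGACNNNGC, a core of the antioxidant response element, were searched on both strands in RefSeq promoters of the rat assembly GRCr8, each running from 250 bases before to 50 after the annotated start. Of the 34 genes, 27 had a promoter there and 10 of these (37.0%) held the letters, against 4038 of all 33469 promoters (12.1%) and 3602 of all 27457 genes (13.1%). The members were compiled partly as known NRF2 targets, and this share is a description of the window. The stretches around the matches are shown for the 8 members whose levels are given library by library in both kidney tables below, with the match in capitals and 5′ to 3′ on the gene's strand. Where the capitals read GC first, the motif lies on the opposite strand.
Me1, chr8:96540383-96540431, minus strand: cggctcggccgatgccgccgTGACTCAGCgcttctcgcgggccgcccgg
Pir, chrX:33851050-33851183, minus strand, 2 matches: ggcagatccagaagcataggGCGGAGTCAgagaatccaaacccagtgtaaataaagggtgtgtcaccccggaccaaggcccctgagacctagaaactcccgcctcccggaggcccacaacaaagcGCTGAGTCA
Gsta1, chr9:31216484-31216512, minus strand: aactcaggcaTGACTTTGCatttttcttc
Ugdh, chr14:43202291-43202339, plus strand: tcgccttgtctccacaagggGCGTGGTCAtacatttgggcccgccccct
Txnrd1, chr7:22755954-22756002, minus strand: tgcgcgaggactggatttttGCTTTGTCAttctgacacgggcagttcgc
Gclm, chr2:213031943-213031991, plus strand: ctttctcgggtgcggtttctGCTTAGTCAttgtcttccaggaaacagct
Gstp1, chr1:210769738-210769786, minus strand: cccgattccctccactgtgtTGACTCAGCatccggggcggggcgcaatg
Nfe2l2, chr3:81028950-81028971, minus strand: gactagccatTGACGCCGCctc

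The Gsta1 match starts 31 bases after the annotated start, while the matches in Me1 and Ugdh start 167 and 207 bases before it. Nfe2l2 itself held the letters 39 bases after its start, and Ephx1 57 bases before it. In Me1, Gstp1, Ephx1, Prdx1 and the Pir match nearer the start, the letters overlap TGACTCA or its reverse complement TGAGTCA, the site usually bound by AP-1 factors. The other 17 promoters, Nqo1, Srxn1, Gclc and Pgd among them, do not hold these letters in this window, and 7 members (Hmox1, Gsr, Ptgr1, Fth1, Ftl1, Slc48a1 and Ggh) had no entry.

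The libraries held between 24299423 and 38318764 estimated counts, and levels below are CPM, a gene's counts scaled to a common library total, after TMM normalisation within a table. At least 25 counts lay behind 1 CPM in each library of the aldosterone and heart tables and 31 in the kidney salt table. They are not divided by gene length, so they are compared between libraries and not between genes. The summed level of 5 cardiomyocyte markers was 35415 to 50645 CPM in the heart libraries and at most 4.71 CPM in the kidney libraries, and 5 collecting duct markers summed to 7525 to 12613 CPM in the kidney libraries. The 4 heart libraries of batch 1 also held kidney transcripts, with 7 proximal tubule markers summing to 25.4 to 97.9 CPM against 0.321 to 1.12 CPM in batch 2. Xist was at 239 to 454 CPM in the aldosterone experiment and at most 0.0913 CPM in the salt experiment, where Y-linked transcripts summed to 144 to 275 CPM although the protocol describes female rats. In whole tissue, fewer cells of a type and less RNA per cell cannot be told apart.

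**Figure D1:**
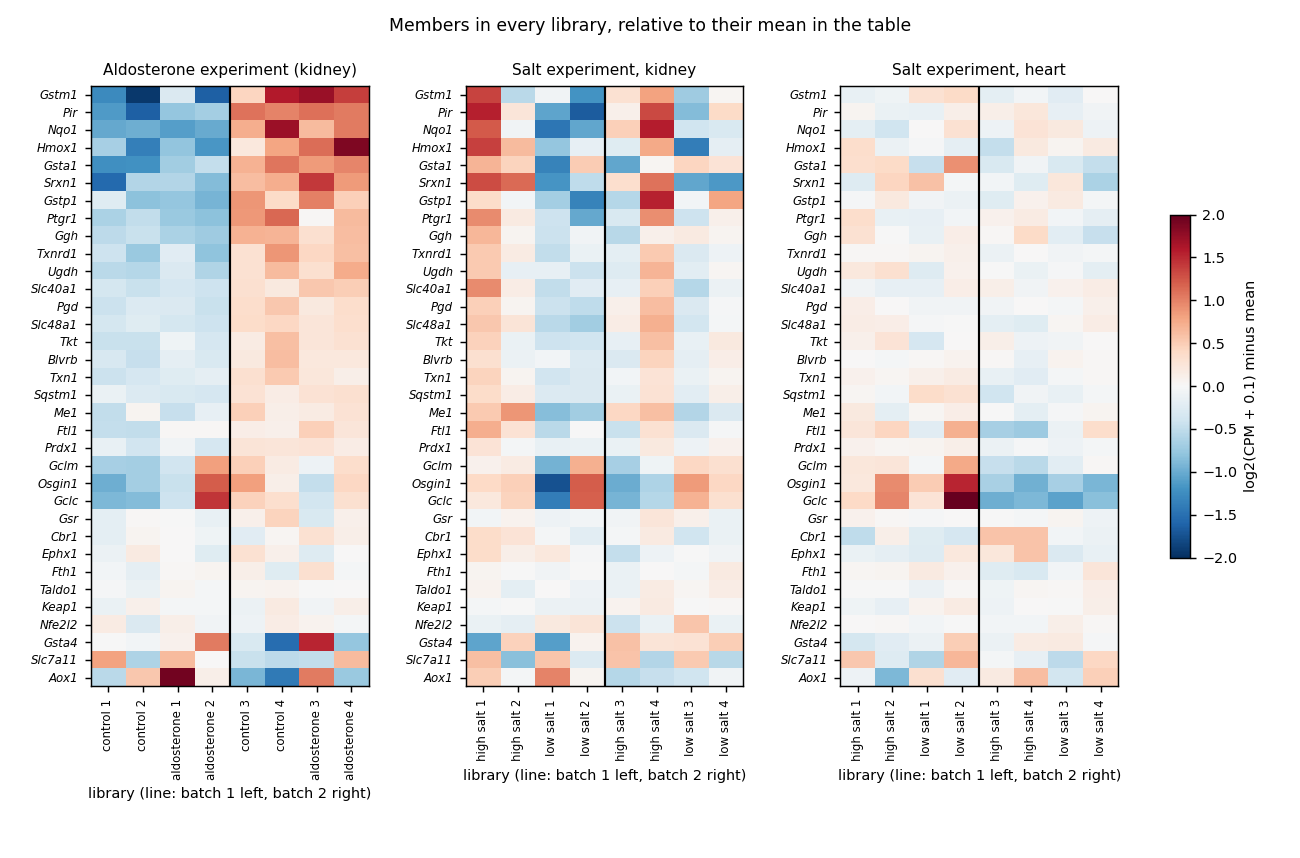
Level of each of the 34 genes in every library, as log2(CPM + 0.1) minus the gene's mean in its table, for the aldosterone experiment (left), the salt experiment in kidney (middle) and in heart (right); a black line divides batch 1 from batch 2. The left panel is mostly blue in batch 1 and red in batch 2 for aldosterone and control libraries, and in the middle panel high-salt replicates 1 and 4 carry most of the red.

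The transcripts of NRF2 and of KEAP1 passed in no treatment or batch comparison. Nfe2l2 was at 250, 218, 243 and 224 CPM in aldosterone replicates 1 to 4 and at 259, 188, 216 and 255 CPM in the controls. In the kidney of the salt experiment, Nfe2l2 was at 222, 215, 181 and 223 CPM on high salt and at 278, 291, 360 and 222 CPM on low salt. Low-salt replicate 4 lay inside the high-salt range and the other 3 above it, and the difference of 0.45 ± 0.14 (log2, SE) did not pass edgeR's test (adjusted p = 0.135). In heart, Nfe2l2 was at 58.3, 58.4, 55.8 and 55.5 CPM on high salt and at 55.7, 57.1, 62.3 and 59.0 CPM on low salt, so the groups overlapped.

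Keap1 was at 66.9, 67.3, 65.6 and 75.3 CPM with aldosterone and at 63.1, 74.1, 64.0 and 78.6 CPM in controls, and the groups overlapped. On high salt the kidney had 77.4, 79.4, 83.7 and 90.3 CPM of Keap1, and on low salt 73.4, 72.9, 78.9 and 81.1 CPM. The heart had 47.9, 45.8, 47.6 and 51.5 CPM on high salt and 53.6, 57.3, 50.8 and 55.3 CPM on low salt. The batch difference in the aldosterone experiment was 0.03 ± 0.11 for Nfe2l2 and 0.06 ± 0.09 for Keap1 on the log2 scale, against a median of 0.56 over all 34 genes. Among 10 NRF2 partners and regulators listed beside the members, including Cul3, Bach1 and the small MAF genes, none passed the adjusted threshold in any treatment or batch comparison.

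In the aldosterone experiment more members differed between the batches than between the treatments. Of the 34 genes, 31 were higher in batch 2 than in batch 1 and 10 of them passed edgeR's test over all genes (adjusted p under 0.05), all higher: Ggh, Gsta1, Pir, Slc48a1, Slc40a1, Nqo1, Ptgr1, Pgd, Srxn1 and Ugdh. These 10 genes, 29.4% of the members, compare with 24 genes or 0.136% of all 17671 genes tested, and with 20 genes or 0.113% for higher calls and 0.0226% for lower calls. The members thus made up 10 of the 20 genes called higher. In 21 members the 4 batch 2 libraries all lay above the 4 batch 1 libraries, which is 61.8% of the list against a background of 6.73% of genes without overlap in either direction. The median over the members was 0.56 on the log2 scale and the median over all genes was -0.02.

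The quinone reductase gene Nqo1, a standard readout of NRF2, was at 39.5 and 42.1 CPM in aldosterone replicates 1 and 2 and at 131 and 173 CPM in replicates 3 and 4. Control replicates 1 and 2 had 41.6 and 42.6 CPM, and control replicates 3 and 4 had 139 and 276 CPM. Every batch 2 library stood above every batch 1 library with or without the hormone, and the fitted difference was 4.29-fold (log2 2.10 ± 0.21, edgeR adjusted p = 0.0177). Pir, an iron-binding nuclear protein with quercetinase activity, was at 5.04, 5.39, 18.8 and 17.9 CPM in aldosterone replicates 1 to 4 and at 3.90, 2.74, 18.4 and 17.4 CPM in the controls. Pir therefore fell into a low and a high set of 4 libraries that matched the batches (4.34-fold, log2 2.12 ± 0.18, edgeR adjusted p = 0.0107).

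Srxn1 encodes sulfiredoxin, which repairs over-oxidised peroxiredoxins. It was at 32.1, 26.5, 129 and 87.3 CPM in aldosterone replicates 1 to 4 and at 16.5, 32.4, 74.6 and 79.9 CPM in the controls. The batches did not overlap, and batch 2 was 3.41-fold higher (log2 1.77 ± 0.22, edgeR adjusted p = 0.0315). Gsta1, a glutathione transferase whose reads may be shared with close paralogs, was at 16.7, 19.6, 49.3 and 53.8 CPM with aldosterone and at 11.6, 11.6, 44.2 and 57.5 CPM in controls. Again replicates 3 and 4 of both groups were the high ones (log2 1.82 ± 0.15, edgeR adjusted p = 0.0107).

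The smallest adjusted p belonged to Ggh, the gamma-glutamyl hydrolase of folate metabolism, with 51.1, 48.5, 98.5 and 121 CPM in the aldosterone libraries and 54.9, 58.0, 128 and 126 CPM in the controls (2.23-fold, log2 1.16 ± 0.08, edgeR adjusted p = 0.00462). Its batch 1 libraries were all lower than its batch 2 libraries. Ptgr1, which reduces prostaglandin and leukotriene metabolites, was at 230, 218, 388 and 596 CPM with aldosterone and at 247, 274, 698 and 851 CPM in controls (log2 1.35 ± 0.16, adjusted p = 0.0308). Ugdh, which makes UDP-glucuronate for conjugation, was at 85.5, 69.3, 130 and 175 CPM with aldosterone and at 72.2, 70.6, 130 and 162 CPM in controls (log2 1.00 ± 0.12, adjusted p = 0.0315). The split by batch held in both groups for each of these genes.

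Slc48a1, a haem transporter of the endosome and lysosome, had a narrow spread within each batch. It was at 121, 116, 182 and 196 CPM with aldosterone and at 121, 131, 199 and 205 CPM in controls, a difference between batches of log2 0.68 ± 0.06 (edgeR adjusted p = 0.0114). Slc40a1, the iron exporter ferroportin, was at 31.2, 29.8, 57.4 and 55.6 CPM with aldosterone and at 31.1, 29.1, 49.7 and 45.2 CPM in controls (log2 0.77 ± 0.08, adjusted p = 0.0172). Both genes of haem and iron transport were higher in batch 2 without overlap. Hmox1, the haem oxygenase, was at 9.50, 7.27, 35.9 and 60.5 CPM with aldosterone and at 10.4, 6.31, 19.1 and 28.5 CPM in controls, so that it too was higher in all 4 batch 2 libraries, but its difference of log2 2.02 ± 0.30 missed the threshold (adjusted p = 0.0664).

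Among the pentose phosphate members, Pgd was called between the batches. Pgd, the 6-phosphogluconate dehydrogenase that makes NADPH, was at 284, 253, 395 and 442 CPM in aldosterone replicates 1 to 4 and at 255, 285, 438 and 503 CPM in the controls, without overlap between batches (log2 0.72 ± 0.09, edgeR adjusted p = 0.0315). Tkt, the transketolase of the non-oxidative branch, was at 359, 302, 450 and 473 CPM with aldosterone and at 281, 279, 426 and 578 CPM in controls, also without overlap (log2 0.66 ± 0.12), but missed the threshold with adjusted p = 0.141. For Taldo1, the transaldolase of the same branch, aldosterone libraries had 209, 196, 201 and 203 CPM and controls 199, 183, 209 and 212 CPM, a batch difference of 0.07 ± 0.06 (log2).

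Other members showed the same order of batches with adjusted p over the threshold. Txnrd1, the thioredoxin reductase, was at 159, 107, 249 and 285 CPM with aldosterone and at 140, 112, 230.9 and 344 CPM in controls (log2 1.10 ± 0.17, adjusted p = 0.0795). Me1, the cytosolic malic enzyme, was at 227, 280, 352 and 382 CPM with aldosterone and at 223, 326, 437 and 339 CPM in controls (log2 0.52 ± 0.14, adjusted p = 0.255). In both genes the lowest batch 2 library was above the highest batch 1 library. Gstm1, a glutathione transferase with close paralogs, gave the largest batch value of any member, log2 2.53 ± 0.36 (adjusted p = 0.0541), from 63.7, 25.2, 257 and 204 CPM with aldosterone and 32.2, 20.4, 105 and 234.8 CPM in controls. Gstp1, another glutathione transferase, was at 231.3, 206, 791 and 548 CPM with aldosterone and at 334, 223, 728 and 513 CPM in controls (log2 1.39 ± 0.20, adjusted p = 0.0561).

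Within each group the direction was the same for most members. Batch 2 was higher than batch 1 for 30 of 34 genes among the controls, for 24 among the aldosterone libraries and for 23 in both, with medians of 0.80 and 0.47 (log2). The median member, relative to its mean over the table, lay between -0.45 and -0.29 in the 4 batch 1 libraries and between 0.28 and 0.36 in the 4 batch 2 libraries. The number of calls depended on single libraries. Without aldosterone replicate 1 no member and no other gene passed, with edgeR adjusted p for the 10 members between 0.0503 (Ggh) and 0.112 (Srxn1). Members made up 5 of the 7 genes called in each fit without control replicate 1 or 2. They were 3 of 3 without aldosterone replicate 2, 4 of 9 without aldosterone replicate 4, and 6 of 12 without control replicate 4. With the 4 controls alone or the 4 aldosterone libraries alone, no gene of the whole table passed.

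Some cell type markers also differed in level between these batches. Of the markers tested, 3 of 3 for fibroblasts, 5 of 5 for macrophages and 5 of 6 for urothelium were lower in batch 2, with medians of -1.01, -0.66 and -0.92 (log2), none passing the adjusted threshold. By group, the macrophage markers Adgre1, Csf1r and C1qa were at log2 -1.46 to -0.98 among controls and 0.07 to 0.11 with aldosterone. Cd68, Cd163 and C1qb were lower in batch 2 in both groups. The urothelium markers Upk1a, Upk1b, Upk2, Upk3a and Krt5 were at -0.88 to 0.27 among controls and -2.30 to -1.44 with aldosterone. Krt20 was at -0.01 and 0.72. The summed fibroblast level was 141 to 295 CPM in batch 1 and 75.2 to 212 CPM in batch 2, the macrophage level 36.3 to 48.1 and 17.3 to 45.4 CPM, and the urothelium level 51.1 to 159 and 23.2 to 68.5 CPM. The 5 collecting duct markers summed to 8864 to 12613 CPM in batch 1 and 8718 to 12436 CPM in batch 2. The part of these differences in the members' values was not tested.

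**Figure D2:**
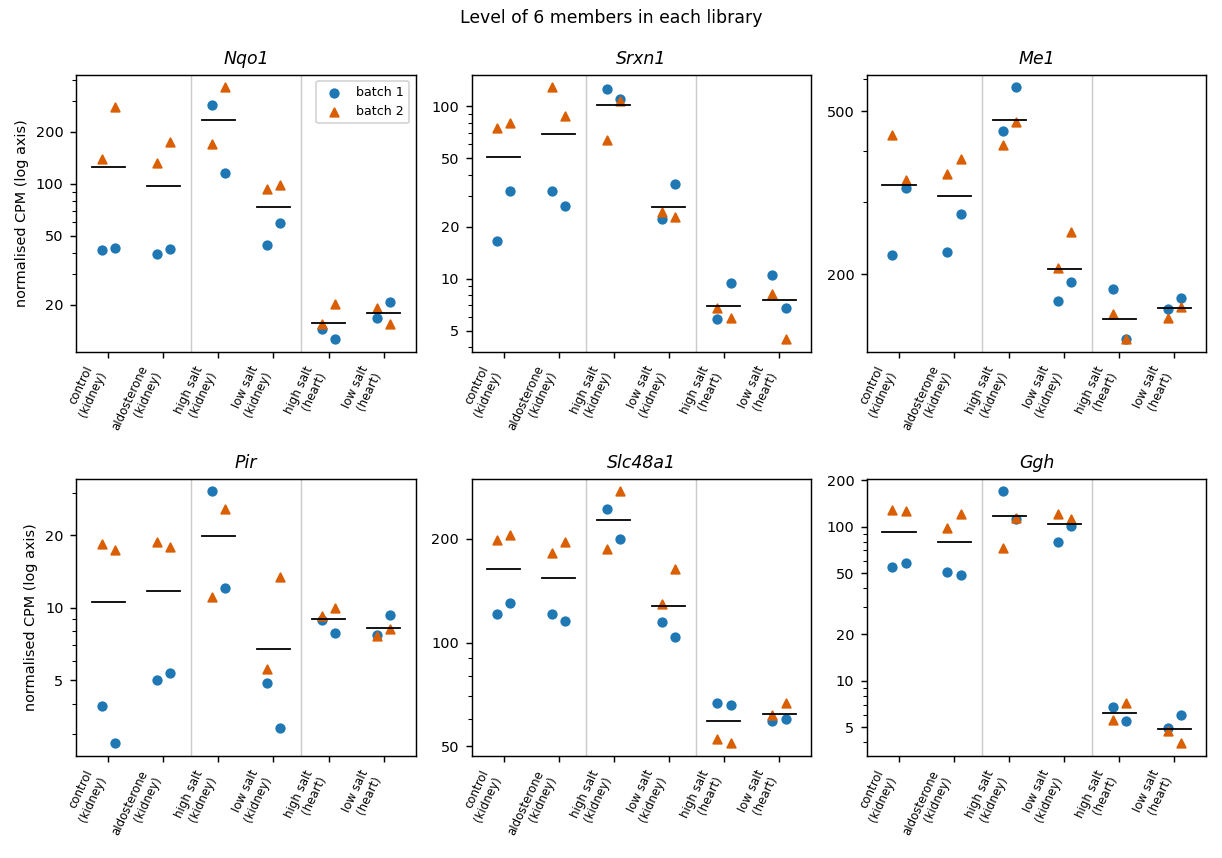
Levels of Nqo1, Srxn1, Me1, Pir, Slc48a1 and Ggh in each library (TMM-normalised CPM, log axis), with batch 1 as circles, batch 2 as triangles and a line at the mean of each group. In the first 2 groups of each panel the triangles lie above the circles, and for Srxn1 and Me1 the kidney low-salt libraries lie below the high-salt libraries.

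Aldosterone itself called none of the 34 genes, and none of the 17671 genes tested passed (0%) by edgeR. Before adjustment, 1096 genes were higher and 654 lower with p under 0.05. Among the members, 2 were higher and 2 lower at that level, 20 were positive, and the median was 0.04 (log2). No member had groups that did not overlap, against 5.09% of all genes. DESeq2 called 373 genes, and of the members only Ftl1, the ferritin light chain whose reads may be shared with processed copies, which was at 600, 596, 818 and 694 CPM with aldosterone and at 422, 418, 645 and 632 CPM in controls (edgeR log2 0.38 ± 0.09, adjusted p = 0.249). Within each batch both aldosterone libraries had more Ftl1 than both controls. All 8 erythroid markers were also positive for aldosterone (median log2 0.83, none passing), and they summed to 3375 to 4781 CPM with aldosterone and 2026 to 2676 CPM in controls, without overlap. All 4 thick ascending limb markers (median 0.75) and all 6 urothelium markers (median 0.55) were positive too, with sums of 2033 to 4599 against 931 to 2445 CPM and of 23.2 to 159 against 31.5 to 68.5 CPM. By batch, all 6 urothelium markers were higher with aldosterone in batch 1. In batch 2, Upk1a, Upk1b, Upk2 and Upk3a were lower (log2 -0.72 to -0.32), and Krt5 and Krt20 were higher. The part of these markers in the members' values was not tested. Gsta4, a glutathione transferase acting on lipid aldehydes, had log2 1.12 ± 0.51 (adjusted p = 0.516) from 43.9, 85.1, 119 and 24.2 CPM against 41.3, 39.9, 33.5 and 14.3 CPM, with overlap. No member passed the test of whether the aldosterone difference depended on batch, where 0% of all genes passed.

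In the kidney, fewer transcripts of several oxidant-response genes were counted on low salt than on high salt. Of the 34 genes, 4 were called lower on low salt than on high salt and none higher: Srxn1, Me1, Slc48a1 and Nqo1. That is 11.8% of the members, against 454 of 18449 genes or 2.46% in either direction, 1.37% for lower calls and 1.09% for higher calls. In addition to these 4, Pgd had low-salt libraries that were all below the high-salt libraries. In all, 5 members or 14.7% did not overlap, near the 11.4% of all genes. The median over the members was -0.36 (log2), with 24 negative, and the median over all genes was 0.00 at 2 decimals.

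Srxn1 was at 125, 111, 63.6 and 107 CPM in high-salt replicates 1 to 4 and at 22.2, 35.5, 24.3 and 22.7 CPM in low-salt replicates 1 to 4. The lowest high-salt library, replicate 3, still stood above the highest low-salt library, replicate 2, and low salt had 0.259 times the high-salt level (log2 -1.95 ± 0.19, edgeR adjusted p = 0.0103). Me1 was at 447, 573, 415 and 471 CPM on high salt and at 172, 192, 207 and 254 CPM on low salt. All low-salt libraries were lower, in a narrow band, and the fitted ratio was 0.431 (log2 -1.21 ± 0.14, edgeR adjusted p = 0.0163).

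Nqo1 was at 287, 116, 170 and 362 CPM on high salt and at 44.6, 59.1, 92.8 and 98.7 CPM on low salt. The groups did not overlap, although high-salt replicate 2 lay close to low-salt replicates 3 and 4 (log2 -1.71 ± 0.33, edgeR adjusted p = 0.0430). Slc48a1 was at 243, 200, 187 and 274 CPM on high salt and at 115, 104, 130 and 163 CPM on low salt (log2 -0.84 ± 0.15, edgeR adjusted p = 0.0376). Pgd was at 565, 421, 436 and 623 CPM on high salt and at 299, 285, 330 and 400 CPM on low salt, with log2 -0.64 ± 0.14 and an adjusted p of 0.0573. Low-salt replicate 4 was the highest of its group in Nqo1, Me1, Slc48a1 and Pgd.

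Several further members were below their high-salt level on average but overlapped between the diets. Hmox1 was at 48.6, 29.2, 15.8 and 31.7 CPM on high salt and at 11.0, 16.7, 7.11 and 16.5 CPM on low salt (log2 -1.25 ± 0.34, adjusted p = 0.0922). Pir was at 30.4, 12.1, 11.0 and 25.7 CPM on high salt and at 4.88, 3.16, 5.56 and 13.4 CPM on low salt (log2 -1.67 ± 0.49, adjusted p = 0.116). In both, high-salt replicates 1 and 4 were high and replicate 3 was the lowest of its group. Txnrd1 was at 279, 218, 170 and 281 CPM on high salt and at 138, 177, 159 and 182 CPM on low salt (log2 -0.53 ± 0.17, adjusted p = 0.137). Ptgr1 was at 853, 500, 358 and 841 CPM on high salt and at 331, 217, 330 and 471 CPM on low salt (log2 -0.94 ± 0.32, adjusted p = 0.157).

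Slc40a1 was at 74.3, 43.1, 34.5 and 53.8 CPM on high salt and at 27.3, 33.0, 26.1 and 35.8 CPM on low salt, where only low-salt replicate 4 reached into the high-salt range (log2 -0.74 ± 0.22, adjusted p = 0.120). Ugdh was at 130, 80.9, 75.6 and 146 CPM against 80.8, 67.4, 78.7 and 93.0 CPM, with overlap. Tkt was at 557, 366, 361 and 610 CPM on high salt and at 303, 306, 363 and 460 CPM on low salt, also with overlap (log2 -0.42 ± 0.20, adjusted p = 0.287). Taldo1 was flat, at 220, 182, 190 and 233.1 CPM against 211, 194, 216 and 230 CPM (log2 0.04 ± 0.09). Ggh, the gene with the smallest adjusted p between the aldosterone batches, was at 169, 112, 72.8 and 115 CPM on high salt and at 79.3, 101, 121 and 111 CPM on low salt (log2 -0.16 ± 0.24).

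Not every member went down. Gclc and Gclm encode the catalytic and modifier subunits of glutamate cysteine ligase, the rate-limiting enzyme of glutathione synthesis. Gclc was at 449, 526, 204 and 262 CPM on high salt and at 150, 892, 629 and 487 CPM on low salt, and Gclm at 167, 174, 98.7 and 148 CPM and at 81.2, 255, 207 and 196 CPM. Low-salt replicate 1 was the lowest library and low-salt replicate 2 the highest for both subunits, and neither difference passed (log2 0.68 ± 0.49 and 0.34 ± 0.33). Osgin1, an oxidative stress growth inhibitor, ran the same way, at 55.4, 58.7, 21.1 and 27.4 CPM on high salt and at 12.6, 98.4, 76.4 and 56.5 CPM on low salt (log2 0.70 ± 0.57). Gsta1 was at 83.1, 70.8, 25.2 and 52.8 CPM on high salt and at 20.3, 73.2, 69.7 and 62.8 CPM on low salt, with low-salt replicate 1 lowest and the groups overlapping (log2 0.02 ± 0.46).

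Slc7a11, the cystine importer that feeds glutathione synthesis, was near the detection limit. It was at 0.957, 0.590, 0.388 and 0.959 CPM with aldosterone and at 1.09, 0.346, 0.402 and 0.377 CPM in controls. In the kidney of the salt experiment it was at 0.670, 0.184, 0.651 and 0.239 CPM on high salt and at 0.640, 0.319, 0.632 and 0.243 CPM on low salt. In the heart it was at 0.296, 0.128, 0.166 and 0.143 CPM and at 0.0795, 0.332, 0.0895 and 0.263 CPM, too few counts for the filter, so it was not tested there. Its groups overlapped in every table and it passed in no comparison.

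The low-salt calls rested on few libraries. Srxn1 and Me1 passed in 7 of 8 fits that each left out 1 library, Slc48a1 in 1 and Nqo1 in 0. Without low-salt replicate 3, 2 genes and no member passed, with edgeR adjusted p between 0.0501 for Srxn1 and 0.102 for Nqo1. Without high-salt replicate 1 or 2, 2 members passed, of 70 and 24 genes. Without low-salt replicate 2 or 4, 2 members passed, of 163 and 84 genes. Without high-salt replicate 4, 2 members passed, and over all genes 141 were higher and 171 lower. Without low-salt replicate 1, Srxn1 and Me1 passed as lower and Gclc and Osgin1 as higher (log2 1.11 ± 0.15 and 1.19 ± 0.18). In that fit 128 of all genes were called lower and 295 higher. In batch 1 alone low salt was lower for 30 of 34 genes with a median of -0.58 (log2), in batch 2 alone for 24 with a median of -0.12, and 23 were lower in both. The test of whether the low-salt difference depended on batch called no member and no gene (0%). Between the batches of this table no gene was called (0%), 6.87% of all genes had batches that did not overlap, and at an unadjusted p under 0.05 there were 1384 genes higher and 1329 lower, 2 and 2 of them members. Aox1 was the only member whose batches did not overlap there. Gstp1 had the largest batch value there among members with a mean of at least 1 CPM, log2 1.03 ± 0.44 (adjusted p = 0.331), from 540, 405, 281 and 1215 CPM on high salt and 260, 166, 403 and 725 CPM on low salt. Gsta4 was at 19.7, 56.1, 61.0 and 49.0 CPM on high salt and at 19.0, 43.0, 50.1 and 57.3 CPM on low salt, with replicate 1 the lowest of each diet (batch log2 0.66 ± 0.34).

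Markers of other cells also differed in level between the diets. In the fit over both batches all 7 proximal tubule markers were positive for low salt, with a median of 0.81 (log2), but the batches went opposite ways. All 7 were lower on low salt in batch 1 (log2 -0.74 to -0.01) and all 7 higher in batch 2 (1.07 to 2.11). Their sum was 75.8 to 427 CPM on high salt and 136 to 560 CPM on low salt. The 8 erythroid markers were positive in the fit with a median of 0.92, while 7 of them were lower in batch 1 and 7 higher in batch 2, and they summed to 1210 to 4706 CPM on high salt and 2879 to 6419 CPM on low salt. Of 6 urothelium markers 5 were lower, with a median of -0.56, and by batch 5 were lower in batch 1 and 3 in batch 2. The urothelium sum was 81.1 to 510 CPM on high salt and 98.1 to 267 CPM on low salt. None of the markers of these 3 lists passed the adjusted threshold. Of 5 collecting duct markers 3 were negative and 2 positive, with a median of -0.10, and 1 passed, the urea transporter gene Slc14a2 (log2 -0.81 ± 0.12, adjusted p = 0.0207), while Scnn1g was at log2 0.54 ± 0.13 (adjusted p = 0.0662). Of 4 endothelial markers 1 passed, Emcn (log2 -0.75 ± 0.12, adjusted p = 0.0319), and the other 3 lay between -0.19 and 0.04. The part of these differences in the members' low-salt values was not tested.

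Among 23 further NRF2 target and glutathione genes, 3 were called lower on low salt in the kidney and none higher, with a median of -0.25 (log2). Akr1b8, an aldo-keto reductase with close paralogs, was at 1534, 721, 729 and 1286 CPM on high salt and at 166, 248, 226 and 292 CPM on low salt, without overlap (log2 -2.20 ± 0.30, edgeR adjusted p = 0.0195). The drug and conjugate exporters Abcc1 (log2 -0.49 ± 0.10, adjusted p = 0.0462) and Abcc4 (log2 -0.67 ± 0.13, adjusted p = 0.0475) were the other two. Of 10 further pentose phosphate and NADPH genes none was called, with a median of -0.07 (log2). No gene was called among 14 other antioxidant enzymes, 11 ATF4 target genes and 5 aryl hydrocarbon receptor genes, whose medians were -0.05, -0.20 and -0.17. In the same order, 21.4%, 54.5% and 0% of them had an unadjusted edgeR p under 0.05 in either direction. That compares with 44.1% of the members and 19.6% of all genes. Diets did not overlap for 0%, 27.3% and 0% of them, against 11.4% of all genes. Between the aldosterone batches none of those 3 lists, nor of the 23 NRF2 target and glutathione genes, had a call, and their medians were -0.06, -0.11, -0.51 and 0.04. Of the 23 genes, 21.7% had batches without overlap in either direction, against 6.73% of all genes. An unadjusted edgeR p under 0.05 was found for 34.8% of them, against 12.2%. Akr1b8 was higher in batch 2 by log2 2.08 in controls and 2.02 with aldosterone, while Abcc1 and Abcc4 lay between -0.24 and -0.11 in both groups. With aldosterone no gene of any list was called.

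**Figure D3:**
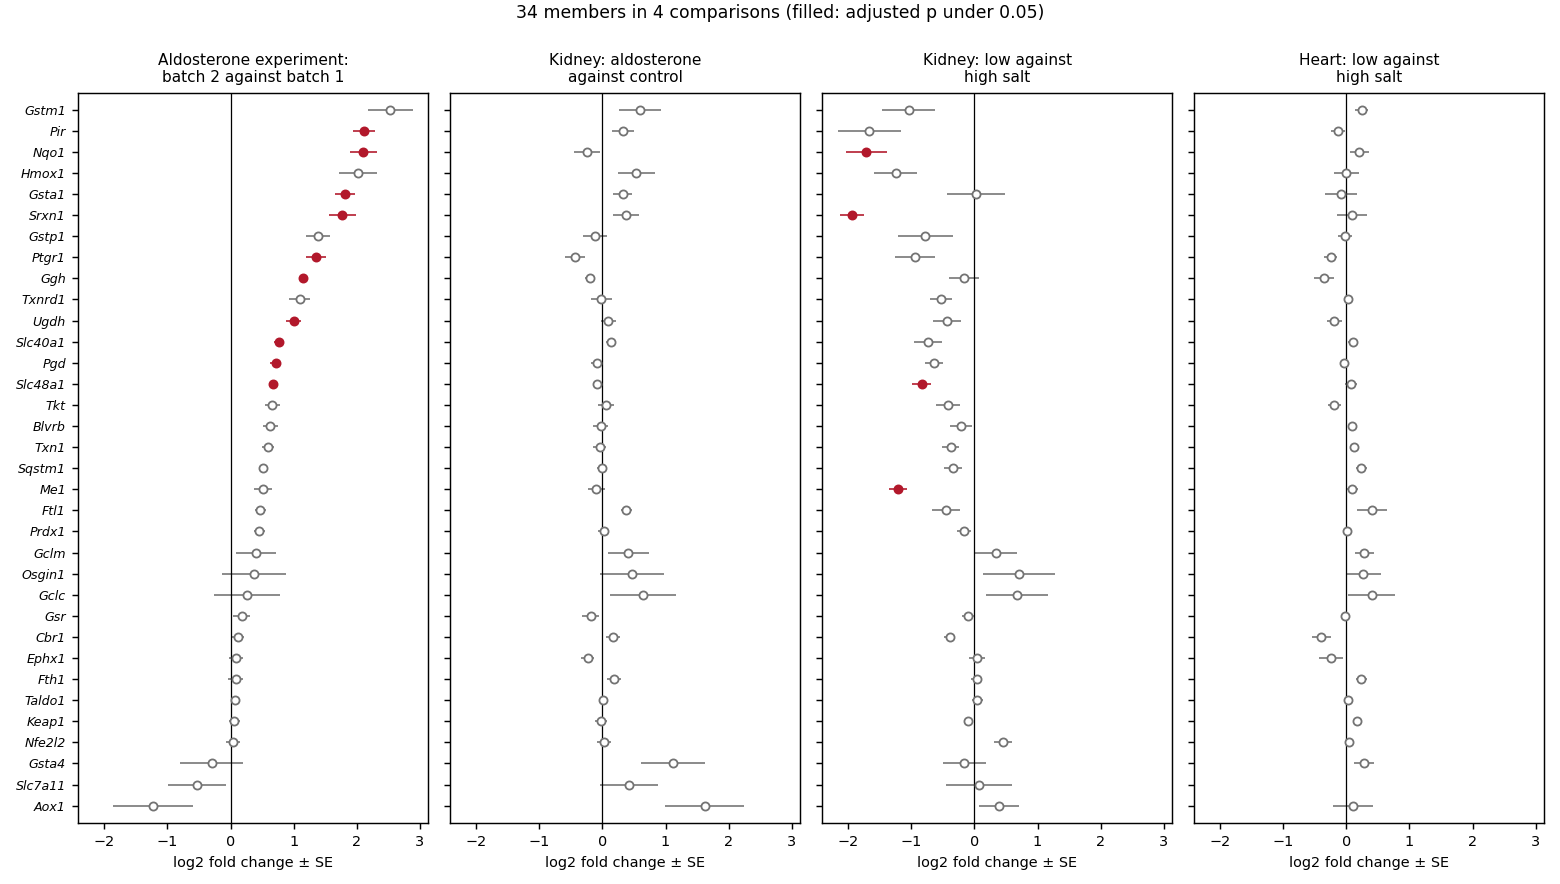
Fitted log2 differences with standard errors for the 34 genes: from left to right, batch 2 against batch 1 in the aldosterone experiment, aldosterone against control, and low against high salt in kidney and in heart; filled points passed an adjusted p of 0.05 over all genes. Batch values lie mostly right of 0 with 10 filled points, kidney low-salt values mostly left of 0 with 4, and no aldosterone or heart value is filled.

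Of the 10 members called between the aldosterone batches, 9 had a negative low-salt value in the kidney, and 3 of them (Nqo1, Srxn1 and Slc48a1) were called lower there, which is 3 of the 10 and 3 of the 4. In all, 23 of 34 genes were positive by batch and negative on low salt. Most members were positive by batch and most were negative on low salt, so those majorities largely fixed both overlaps. The same shares over all genes were not computed, and the overlaps are a description only. The aldosterone and salt experiments used different rats and libraries, and the members were chosen with earlier results of these data known. In the aldosterone experiment the batch 2 libraries had Srxn1 at 74.6 to 129 CPM, and the kidney high-salt libraries, which come from a table normalised separately, had 63.6 to 125 CPM. The batch 1 libraries had 16.5 to 32.4 CPM and the low-salt libraries 22.2 to 35.5 CPM. No test was made across the tables on these levels.

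Low salt in the heart called none of the 33 members tested, while 8 of 15473 genes or 0.0517% passed (0.0388% as lower and 0.0129% as higher). No member had diets that did not overlap, against 4.72% of all genes. With the replicate number as a block no gene passed. At an unadjusted edgeR p under 0.05, 5 members were higher and 2 lower, or 21.2%. Over all genes it was 10.6%, with 879 higher and 762 lower. The median was 0.08 over the members and -0.01 over all genes (log2). Nqo1 was at 14.6, 12.7, 15.6 and 20.2 CPM on high salt and at 16.7, 20.7, 19.2 and 15.6 CPM on low salt. Srxn1 was at 5.82, 9.42, 6.71 and 5.88 CPM on high salt and at 10.5, 6.79, 8.15 and 4.46 CPM on low salt. Me1 was at 184, 139, 160 and 139 CPM and at 165, 175, 157 and 166 CPM. All 3 genes overlapped between the diets. Cbr1, a carbonyl reductase, had the largest negative value of the members, log2 -0.40 ± 0.15 (adjusted p = 0.402), from 19.3, 29.9, 41.1 and 40.8 CPM on high salt and 23.1, 21.7, 26.6 and 25.3 CPM on low salt. The test of whether the low-salt difference depended on batch called no member and 0.155% of genes (0.142% higher and 0.0129% lower).

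The pentose phosphate genes of the heart were equally close between diets. Pgd was at 52.9, 48.6, 45.7 and 48.2 CPM on high salt and at 45.9, 45.9, 47.1 and 51.8 CPM on low salt. Taldo1 was at 64.9, 64.9, 60.8 and 66.5 CPM and at 60.0, 65.7, 65.8 and 71.3 CPM. Tkt was at 41.2, 46.3, 41.3 and 35.5 CPM and at 30.4, 38.2, 36.5 and 38.4 CPM, and all 3 overlapped. Hmox1 was at 7.60, 5.46, 4.22 and 6.77 CPM on high salt and at 5.84, 5.24, 6.15 and 6.73 CPM on low salt. Txnrd1 was at 68.9, 69.2, 62.8 and 68.0 CPM and at 70.4, 72.6, 64.7 and 66.1 CPM, again with overlap.

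The members called between the aldosterone batches overlapped between the heart diets. Pir was at 8.86, 7.83, 9.27 and 10.01 CPM on high salt and at 7.71, 9.30, 7.67 and 8.14 CPM on low salt. Ggh was at 6.74, 5.46, 5.55 and 7.16 CPM and at 4.93, 5.98, 4.71 and 3.94 CPM. Ugdh was at 11.0, 11.9, 9.47 and 8.70 CPM and at 7.99, 10.1, 9.37 and 8.27 CPM. Diets overlapped in all 3 genes. Ptgr1 was at 110, 77.6, 91.1 and 96.1 CPM on high salt and at 76.1, 82.1, 82.2 and 75.5 CPM on low salt. Slc40a1 was at 27.7, 25.8, 31.3 and 27.5 CPM and at 25.8, 31.8, 30.8 and 32.1 CPM. Slc48a1 was at 66.9, 66.0, 52.4 and 51.1 CPM and at 59.4, 60.1, 61.6 and 66.9 CPM. These too overlapped, and none of the 6 was called between the heart diets or batches. Gsta1 was at 13.8, 14.2, 8.77 and 10.3 CPM on high salt and at 7.91, 20.5, 8.83 and 7.78 CPM on low salt, with low-salt replicate 2 the highest library.

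Other members were uneven across the heart libraries. Ftl1 had the largest low-salt value in heart, log2 0.40 ± 0.24 (adjusted p = 0.593), from 297, 340, 158 and 152 CPM on high salt and 216, 410, 232.3 and 319 CPM on low salt. Its 2 batch 1 libraries were the higher ones on high salt, and the diets overlapped. The 8 erythroid markers summed to 29711, 32343, 8699 and 2147 CPM in the same high-salt libraries and to 16950, 53874, 18811 and 41672 CPM in the low-salt ones, and their part in the Ftl1 value was not tested. Aox1 was at 3.04, 1.69, 3.69 and 5.06 CPM and at 4.09, 2.77, 2.51 and 4.59 CPM, and Ephx1 at 6.63, 6.42, 8.54 and 10.9 CPM and at 6.08, 8.41, 5.94 and 6.56 CPM, both with overlap.

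Between the heart batches 2 members were called, Gclc and Osgin1, both lower in batch 2, or 6.06% of 33, against 2.24% of all genes in either direction 1.39% for lower calls and 0.853% for higher calls. Gclc was at 33.8, 50.8, 13.0 and 13.8 CPM in high-salt replicates 1 to 4 and at 31.2, 113, 12.2 and 14.4 CPM in low-salt replicates 1 to 4 (log2 -2.05 ± 0.38, edgeR adjusted p = 0.0367). Osgin1 was at 4.48, 7.51, 2.42 and 1.92 CPM on high salt and at 5.53, 11.3, 2.39 and 2.00 CPM on low salt (log2 -1.70 ± 0.28, edgeR adjusted p = 0.0245). Replicates 1 and 2 of each diet were high in both genes, and low-salt replicate 2 was the highest. In all, 5 members or 15.2% had batch 2 libraries that all lay below batch 1, near the 11% of genes without overlap in either direction. Gclm was at 39.3, 39.7, 24.3 and 23.1 CPM on high salt and at 32.4, 56.6, 28.8 and 33.8 CPM on low salt (log2 -0.62 ± 0.16, adjusted p = 0.0867).

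Those same 4 heart libraries carried the kidney transcripts. The 7 proximal tubule markers summed to 27.1, 47.1, 0.897 and 0.321 CPM in high-salt replicates 1 to 4 and to 25.4, 97.9, 0.656 and 1.12 CPM in low-salt replicates 1 to 4, so the order of the batch 1 libraries in Gclc was that of the marker sum. Of the 7 markers, 6 passed as lower in batch 2. Thick ascending limb markers summed to as much as 100 CPM in batch 1 and at most 2.00 CPM in batch 2. Ggt1, the gamma-glutamyl transferase of the proximal tubule brush border, was at 5.11, 12.6, 0.0996 and 0.214 CPM on high salt and at 4.29, 17.3, 0.0895 and 0.0328 CPM on low salt (log2 -6.47 ± 0.69, adjusted p = 0.00636). Akr7a3, an aflatoxin aldehyde reductase, was also called lower (log2 -4.05 ± 0.53, adjusted p = 0.0114), and Sod3, the extracellular superoxide dismutase, was called higher (log2 0.98 ± 0.10, adjusted p = 0.00532). The part of kidney transcripts in the members' values was not tested. Leaving out high-salt replicate 2 or 3 or low-salt replicate 3 or 4 left no member called, with 132, 102, 62 and 215 genes called in that order. Leaving out high-salt replicate 1 or 4 left 1 member, of 160 and 139 genes. Leaving out low-salt replicate 1 gave 4 members, and over all genes 77 were higher and 224 lower.

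In the kidney tables too, the highest Gclc stood with the highest proximal tubule sum. Low-salt replicate 2 had Gclc at 892 CPM and a sum of 560 CPM, and low-salt replicate 1 had 150 and 136 CPM. The sums of high-salt replicates 1 to 4 were 295, 427, 75.8 and 104 CPM, and those of low-salt replicates 3 and 4 were 366 and 246 CPM. High-salt replicate 3 thus had the lowest sum but more Gclc, 204 CPM, than low-salt replicate 1. Aldosterone replicate 2 had 773 CPM of Gclc with a sum of 232.1 CPM, while the other aldosterone libraries had 213, 221 and 357 CPM with sums of 134, 88.5 and 179 CPM. The controls had 153, 157, 394 and 363 CPM of Gclc, with sums of 89.5, 113, 204 and 113 CPM, so control replicates 2 and 4 differed in Gclc at the same sum. For Gclm in the aldosterone table the values were 108, 249, 131 and 181 CPM with the hormone and 88.5, 88.1, 197 and 158 CPM in controls, and for Osgin1 19.0, 60.3, 18.5 and 34.6 CPM and 13.1, 16.1, 45.8 and 28.2 CPM. Aldosterone replicate 2 was again the highest library in both.

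**Figure D4:**
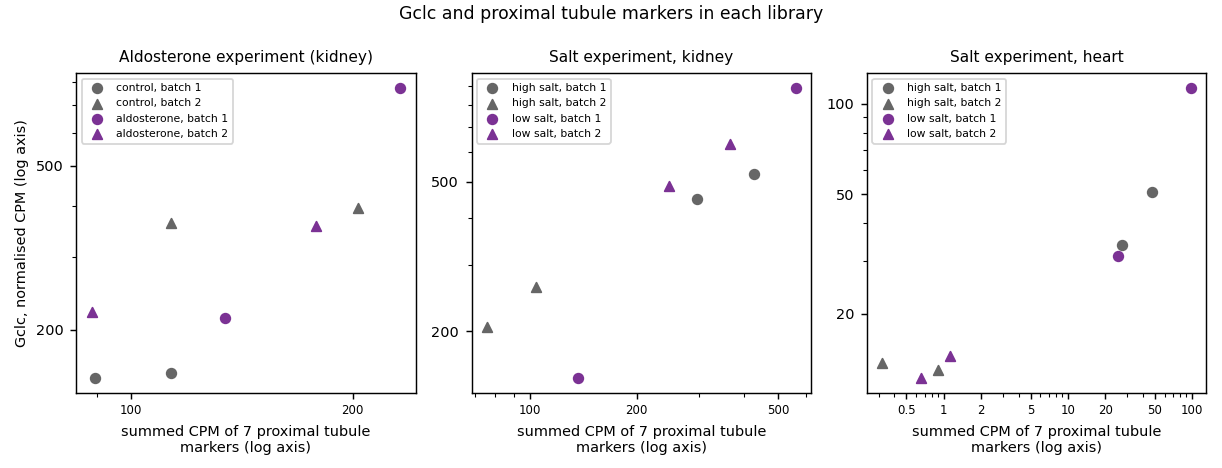
Gclc level (CPM, log axis) against the summed level of 7 proximal tubule markers (CPM, log axis) in each library of the aldosterone, kidney salt and heart salt tables; colour gives the treatment and shape the batch. The library with the highest marker sum has the highest Gclc in each panel: 232.1 and 773 CPM, 560 and 892 CPM, and 97.9 and 113 CPM.

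By a joint fit of both tissues, 24 members were higher in papilla than in ventricle on the high-salt diet and 5 were lower. The 29 calls are 85.3% of the members, and 79.9% of all 19408 genes differed, with 42.9% higher and 37% lower. The median member was 0.98 higher in kidney (log2) and the median gene 0.16. The labels do not say whether the papilla and the ventricle came from the same rats, and the samples were fitted as separate. The joint fit scaled both tissues together by TMM, while the CPM given here were scaled within each table. A fitted log2 value can therefore differ from the ratio of the CPM beside it. Ephx1, the microsomal epoxide hydrolase, had the highest fitted ratio at log2 3.64 ± 0.18. Its levels were 249, 208, 138 and 180 CPM in kidney and 6.63, 6.42, 8.54 and 10.9 CPM in heart. Gsr, which regenerates reduced glutathione, had a fitted log2 of 3.54 ± 0.08, with 513 to 637 CPM in kidney and 24.4 to 26.5 CPM in heart. By CPM, no library of either gene overlapped between tissues.

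The NADPH-making and transketolase steps were also higher in papilla. Pgd was at 421 to 623 CPM in kidney and at 52.9, 48.6, 45.7 and 48.2 CPM in heart on high salt (log2 2.46 ± 0.13, edgeR adjusted p = 2.72e-10). Tkt was at 361 to 610 CPM and 41.2, 46.3, 41.3 and 35.5 CPM (log2 2.60 ± 0.18), and Taldo1 differed less, at 182 to 233.1 CPM against 64.9, 64.9, 60.8 and 66.5 CPM (log2 0.75 ± 0.08). By CPM, each of these pentose phosphate genes was separated without overlap. Nqo1 was higher by log2 2.96 ± 0.29 and Srxn1 by log2 2.93 ± 0.24.

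In the joint fit, the genes lower in papilla than in ventricle were Aox1, Blvrb, Fth1, Cbr1 and Keap1. Aox1, an aldehyde oxidase, was at 0.724, 0.472, 0.296 and 0.328 CPM in kidney and at 3.04, 1.69, 3.69 and 5.06 CPM in heart (log2 -3.83 ± 0.35). Blvrb, which reduces biliverdin, and Fth1, the ferritin heavy chain whose reads may be shared with processed copies, had log2 -1.32 ± 0.14 and -1.02 ± 0.09. Cbr1 had log2 -0.38 ± 0.13 and Keap1 log2 -0.15 ± 0.06 (edgeR adjusted p = 0.0186 and 0.0217). The direction for Keap1 depended on the joint scaling. By CPM scaled within each table, over both diets, Keap1 was at 72.9 to 90.3 in kidney and 45.8 to 57.3 in heart. On that scale Cbr1 also ran higher in kidney, at 30.7 to 52.7 CPM against 19.3 to 41.1 CPM in heart, with overlap. Its direction too depended on the joint scaling. Fth1 was at 1167 to 1443 CPM in kidney and 1170 to 1715 CPM in heart. Nfe2l2 was higher in papilla by log2 0.95 ± 0.12, while Pir, Slc40a1, Slc7a11, Gsta4 and Prdx1 did not pass. Ftl1 (higher), Cbr1 and Keap1 each passed in 12 of 16 fits that left out 1 library, and the other called members in all 16. Without the 4 heart libraries of batch 1, 24 members were higher and 4 lower.

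The low-salt response itself was compared between the tissues. It was lower in kidney than in heart for 4 members, or 11.8%, against 161 of 19408 genes or 0.83% (0.453% lower and 0.376% higher). The difference of responses was log2 -1.30 ± 0.18 for Me1 (edgeR adjusted p = 0.0129), -2.03 ± 0.33 for Srxn1 (0.0228), -1.91 ± 0.39 for Nqo1 (0.0449) and -0.91 ± 0.19 for Slc48a1 (0.0482). These are the members called within the kidney, and their kidney libraries are the same ones. Me1 passed in all 16 fits that each left out 1 library and Srxn1 in 15, failing without heart high-salt replicate 2, while Nqo1 and Slc48a1 each passed in 2. With the replicate number as a block, Me1 alone passed. Without the 4 heart libraries of batch 1, which held kidney transcripts, no member passed and the values were -1.34 ± 0.22, -1.96 ± 0.39, -1.68 ± 0.52 and -1.16 ± 0.23 in the same order, with adjusted p between 0.0888 and 0.236.

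Against the aldosterone response, the low-salt response in the kidney was lower for Srxn1, with a difference of responses of log2 -2.30 ± 0.31 (edgeR adjusted p = 0.0292). That was the only member called, or 2.94%, and 10 of 18938 genes passed, or 0.0528%, with 0.0264% higher and 0.0264% lower. The 2 experiments share no libraries but differ in table, in batches and in the Xist and Y-linked levels given above, which cannot be told apart from the treatments here. Srxn1 passed in 9 of 16 fits that each left out 1 library. The fits that lost it were those without high-salt replicate 1 or 2, low-salt replicate 1 or 3, aldosterone replicate 2 or 3, or control replicate 3.

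The 6 remaining members were Gsr, Fth1, Blvrb, Prdx1, Txn1 and Sqstm1. By edgeR they passed in no treatment or batch comparison, although all but Prdx1 were called between the tissues. Of these, Blvrb, Prdx1, the thioredoxin gene Txn1 and the autophagy receptor Sqstm1 were higher in every batch 2 library of the aldosterone experiment than in any batch 1 library, with log2 differences of 0.63 ± 0.12, 0.45 ± 0.09, 0.60 ± 0.10 and 0.52 ± 0.08. Their adjusted p were 0.152, 0.158, 0.104 and 0.0645. Sqstm1, which binds KEAP1, was at 335 to 529 CPM with aldosterone and at 431 to 606 CPM on high salt against 385 to 513 CPM on low salt in the kidney. Fth1 stayed between 1103 and 1715 CPM in every library of the 3 tables. Gsr was at 387 to 513 CPM with aldosterone and 419 to 651 CPM in controls.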

How the data were processed

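RNA from papilla or ventricle was sequenced as stranded mRNA libraries with single-end reads, per the labels' protocols. The authors deposited 3 tables of expected counts per gene, which are not whole numbers; bcl2fastq 2.19, Trimmomatic, Salmon and MultiQC are named in the submitters' processing notes, and the rat annotation is not given in the sources used here. Counts were rounded and fitted with edgeR 4.0.16 (R 4.3.3): filterByExpr with a minimum count of 10, TMM normalisation, batch and treatment as terms, the quasi-likelihood F test and Benjamini-Hochberg adjustment over all genes tested at 0.05. Differences are log2 with SE taken from the F statistic. Treatment by batch was an interaction term. The tissue and response comparisons were joint fits of 16 libraries scaled together by TMM, with batch kept within each table. DESeq2 1.42.0 was one alternative. The members and the 6 pathway and 12 marker lists were chosen with earlier results of these data known, and which values prompted the choice is not recorded. Values in every library are given for members called in a treatment or batch comparison and, whatever their p, for Nfe2l2, Keap1, Nqo1, Srxn1, Gclc, Gclm, Txnrd1, Hmox1, Slc7a11, Me1, Pgd, Taldo1 and Tkt, and, in the table concerned, for up to 3 members per comparison with the largest differences at a mean of 1 CPM or more. The genes Ephx1, Ftl1 and Prdx1 were singled out after their values were seen. No 2 libraries of a group agreed within sampling noise over 36 pairs (chi-square per gene at least 20.7). The protocol gives 4 rats per treatment. Replicate numbers occur in each group. The deviations of same-numbered libraries correlated at 0.22 to 0.30 in heart, -0.05 to 0.32 in the aldosterone table and -0.05 to 0.23 in the kidney salt table. The main fits did not treat the numbers as pairing in any table, and a replicate block was run as an alternative in each. With deviations taken from the mean of each group and batch, those of the heart correlated at -0.01 and -0.04. A gene of the pathway lists is not reported here.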

Additional observations from a re-analysis of the deposited data

Results flagged for a closer look

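For 4 genes, responses differed by test between tissues or experiments. The low-salt response was lower in kidney than in heart by a log2 difference of -1.91 for Nqo1, -2.03 for Srxn1, -1.30 for Me1 and -0.91 for Slc48a1, and the low-salt response of Srxn1 was lower than its aldosterone response by a log2 difference of -2.30. In 161 groups of 4 libraries tested for a sample far from the other 3, 4 stood apart, and chance gives about 1 in 20 such groups. Keap1 was at 75.3 CPM in aldosterone replicate 4 against 65.6 to 67.3 CPM in the others. Srxn1 was at 35.5 CPM in kidney low-salt replicate 2 against 22.2 to 24.3 CPM. Slc7a11 was at 1.09 CPM in control replicate 1 against 0.346 to 0.402 CPM. Gsta1 was at 20.5 CPM in heart low-salt replicate 2 against 7.78 to 8.83 CPM, in the library with the highest proximal tubule marker sum of the heart table.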

How the results depend on the processing

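No called member changed sign under any alternative run. DESeq2 called 373 genes and 1 member for aldosterone, 1695 and 11 for low salt in kidney, 291 genes for low salt in heart, 389 and 21 between the aldosterone batches, 631 genes between the kidney batches, 1026 and 6 between the heart batches, 24, 31 and 380 genes for treatment by batch in the aldosterone, kidney and heart tables, 834 and 10 for kidney against heart response and 657 and 9 for low salt against aldosterone response. Without the filter on low counts the gene counts were 4 for aldosterone, 85 for heart low salt, 69 (17 members) between the aldosterone batches, 1 and 818 between the kidney and heart batches, 335 for treatment by batch in heart and 52 (2 members) for low salt against aldosterone response. Without the batch term, 165 genes and 2 members passed for kidney low salt, 1 gene for heart low salt, 14 and 1 for kidney against heart response, and 0 and 0 for low salt against aldosterone response. With the replicate block, the counts were 52 genes and 2 members for kidney low salt, 0 genes for heart low salt, 16 and 1 for kidney against heart response, and 0 and 0 for low salt against aldosterone response. In batch 1 alone 1 gene passed for aldosterone, 0 genes and 0 members for kidney low salt and 1 gene for heart low salt. In batch 2 alone 240 genes passed for kidney low salt (204 higher and 36 lower) and 1 for heart. Of the members, 2 passed as higher and 2 as lower for kidney low salt in batch 2 alone. Between batches in controls or high-salt libraries alone, 0 genes and 0 members passed in the aldosterone table, 49 genes in the kidney table and 211 in the heart table. In treated or low-salt libraries alone, 0 and 0 passed in the aldosterone table and 0 and 0 in the heart table. Chosen after seeing the data, leaving out the 4 heart libraries of batch 1 left 6 genes and 0 members for kidney against heart response. These smaller fits use fewer libraries, and otherwise the cause was not tested.

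Leaving out 1 library at a time gave 0 to 2 genes for aldosterone, 2 to 423 (members 0 to 4) for kidney low salt, 1 to 8 for heart low salt, 0 to 44 (0 to 10) between the aldosterone batches, 0 to 5 between the kidney batches, 62 to 301 (0 to 4) between the heart batches, 0 to 166 (0 to 2) and 0 to 8 for treatment by batch in kidney and heart, 11 to 194 (1 to 4) for kidney against heart response, and 0 to 67 (0 to 2) for low salt against aldosterone response. For the tissue difference 26 to 30 members passed. Depth limits Slc7a11 and Aox1, at few counts per library.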
